A study of Arabidopsis thaliana with 27 samples.

Results

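The response of Arabidopsis thaliana seedlings to a move to 37 °C was set against their response to a move to 27 °C, gene by gene. The comparison used 18 of the 27 RNA-seq libraries of the series, and its members were the 21983 nuclear genes that passed a filter on low counts. All libraries came from whole wild-type seedlings of the accession Col-0, grown under long days at 17 °C until they were 10 days old and shifted 1 h after lights on. The 37 °C group held 3 libraries, 1 each after 15 min, 1 h and 4 h. Its 17 °C group held 3 libraries of seedlings kept at 17 °C in the same experiment for the same times. The 27 °C group held 6 libraries, 2 at each of those times. Its own 17 °C group held 6 libraries, again 2 at each time. Each library was made from 30 mg of tissue. No label says whether libraries of 1 group came from separate cultures, so p-values measure the spread between these libraries only. In tests over the 3 times, that spread includes any change with time in the response to warmth. Both warm temperatures came from separate experiments, so a difference between the 37 °C and 27 °C effects and a difference between the experiments cannot be told apart, beyond what each experiment's own 17 °C libraries take out.

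Plants have no single thermometer. Proteins that unfold in heat set free heat shock factors, which bind heat shock elements and switch on chaperone genes. Mild warmth acts through the phytochrome B photoreceptor, the evening complex of the clock and PIF4, a transcription factor that drives elongation growth. A list of heat genes, together with genes whose name or description mentions heat shock, HSP, chaperone or DnaJ, was set aside to look beyond that pathway. It took 278 of the nuclear genes, and 21705 remained.

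The difference between effects is the 37 °C effect minus the 27 °C effect, where an effect is the log2 ratio of warm over 17 °C libraries within 1 experiment, taken over the 3 times. Below, an adjusted p is that of edgeR's quasi-likelihood test, adjusted by Benjamini and Hochberg's method over all genes tested, and a gene is called where it is under 0.05. The difference was called for 3374 of 21983 nuclear genes (15.3%). The 37 °C effect lay above the 27 °C effect for 1326 of them (6.03% of genes tested) and below it for 2048 (9.32%). The 37 °C effect itself was called for 6389 genes (29.1%), of which 2795 rose (12.7%) and 3594 fell (16.3%). The 27 °C effect was called for 390 genes (1.77%), of which 235 rose (1.07%) and 155 fell (0.705%). Without the 4 h library at 37 °C the difference was called for 1418 genes, without its 17 °C partner for 1443, without the 1 h library at 37 °C for 1801 and without its 17 °C partner for 1819. The 37 °C effect was called for 3117 and 3111 genes without the same 4 h libraries at 37 °C and 17 °C, and for 3840 without either 1 h library. The 27 °C effect was called for 650 genes without the 27 °C library numbered 1 at 15 min. It was called for 126 to 226 genes without any other 1 library of the 17-to-27 experiment, apart from the 17 °C libraries numbered 1 at 15 min and 4 h, which moved the count by less than 1.5 times.

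Genes with a called difference were put into classes by their own effects. Genes without one entered no class but the last described, whatever their own effects. In 92 genes (0.419%) both effects were called with the same sign and the 37 °C effect was larger, so they scaled with temperature. In 2672 genes (12.2%) the 37 °C effect was called while the 27 °C effect was not and lay within 0.5 on the log2 scale of 0. These are named 37-specific. The reverse held for 30 genes (0.136%), named 27-specific. In 10 genes (0.0455%) both effects were called with opposite signs. A further 134 genes (0.61%) had a called 37 °C effect and an uncalled 27 °C effect of the same sign that was over 0.5 in size. In 175 genes (0.796%) the signs were opposite, with 1 effect called and the other over 0.5 in size but not called, and 261 genes (1.19%) had a called difference with neither effect called. Both effects were called and of the same sign, with no called difference, in 128 genes (0.582%). No gene with a called difference had both effects called in the same direction and the larger one at 27 °C, by edgeR or by DESeq2. At an unadjusted p under 0.05, 1 gene did so. The same counts, 0 (0%), 0 and 1, hold for genes with a called difference, a called 27 °C effect and an uncalled 37 °C effect of over 0.5 and the same sign. The 128 genes without a called difference include some with the larger effect at 27 °C. The classes record which tests passed, and since the effects chose the members, the values of named genes are a description.

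**Figure D1:**
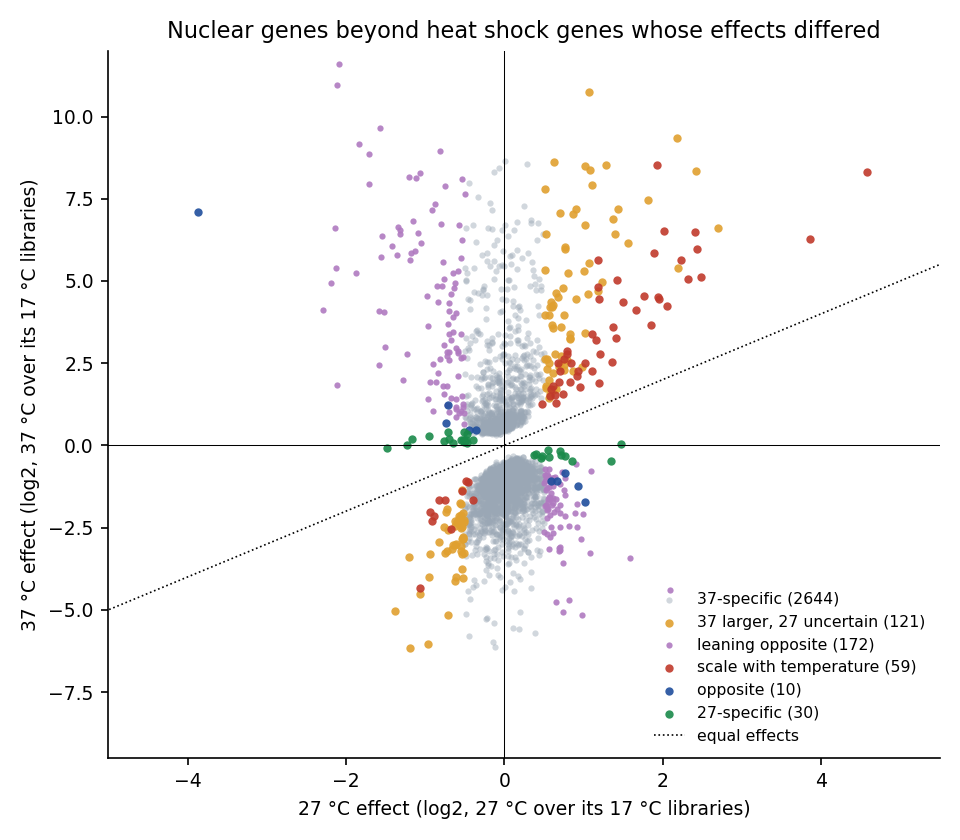
Effect of 37 °C (vertical axis) against effect of 27 °C (horizontal axis), both log2 over 17 °C, for nuclear genes beyond heat genes in 6 classes, with the number of genes in brackets; the dotted line marks equal effects. The 2644 grey 37-specific genes form an upright band at the centre, while the 59 red genes that scale with temperature lie in the upper right and lower left, on the steep side of the dotted line.

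Totals ran between 15.3 and 22.5 M counted reads in the 17-to-37 experiment and between 6.4 and 30.7 M in the 17-to-27 experiment. Chloroplast genes took 6.45% of reads in the 27 °C library numbered 1 at 1 h and 5.43% in its 17 °C partner, against at most 1.54% in the other 16 libraries. Without both of these libraries, 122 genes had a called 27 °C effect, 49 scaled with temperature, 10 were 27-specific and none was opposite.

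The promoter of a gene that scaled with temperature is shown first because it carries the binding motif of the heat pathway although the gene itself encodes no chaperone. GolS1 encodes galactinol synthase, the first committed enzyme of raffinose sugars, which protect cells in heat and drought. Beside it stands the promoter of HSFA2, the heat-inducible heat shock factor. Each run is 300 bases just upstream of the gene's start, read on the gene's strand from the TAIR10.1 genome by its RefSeq annotation. The GolS1 run is chr2:19370479-19370778 on the minus strand and the HSFA2 run is chr2:11135324-11135623 on the plus strand. Capitals mark a perfect heat shock element, 3 alternating units of GAA and TTC with 2 free bases between neighbouring units, searched on both strands.
GolS1: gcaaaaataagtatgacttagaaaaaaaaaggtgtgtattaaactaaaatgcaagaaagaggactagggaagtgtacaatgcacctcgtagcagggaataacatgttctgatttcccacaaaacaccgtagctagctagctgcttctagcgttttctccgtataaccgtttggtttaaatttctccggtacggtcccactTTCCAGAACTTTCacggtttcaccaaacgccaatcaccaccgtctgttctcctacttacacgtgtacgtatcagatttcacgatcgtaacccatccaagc
HSFA2: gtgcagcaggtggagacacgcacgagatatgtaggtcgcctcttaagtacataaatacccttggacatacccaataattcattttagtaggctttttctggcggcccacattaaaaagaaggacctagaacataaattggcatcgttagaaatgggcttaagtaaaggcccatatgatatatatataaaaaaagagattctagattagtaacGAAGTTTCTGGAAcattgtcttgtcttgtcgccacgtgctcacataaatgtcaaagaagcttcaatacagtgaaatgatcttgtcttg
The element's first base lies 100 bases upstream of the gene start in GolS1 and 88 bases upstream in HSFA2. It was found in 113 of 21955 promoters of that length (0.515%) and in 7 of 89 promoters of heat genes (7.87%). Among the 48 genes beyond heat genes that scaled with temperature and rose, GolS1 was the 1 gene with it (2.08%). It was in 6 of 865 promoters of 37-specific genes with a higher difference (0.694%). It was in 3 of 69 promoters (4.35%) of genes that rose at 37 °C with an uncalled 27 °C effect of the same sign and over 0.5, in 2 of 62 shared genes with a difference above 0 (3.23%) and in 1 of 12 27-specific genes that rose at 27 °C (8.33%). It was in 4 of 1778 promoters of 37-specific genes with a lower difference (0.225%). The G-box CACGTG, a motif bound by bZIP and PIF factors, was in 8 of the 48 (16.7%), against 7.86% of all promoters. The CAMTA box CGCGTT was in 4 of the 48 (8.33%), against 3.3% of all. Site II, TGGGCC, was in 186 promoters of 37-specific genes with a lower difference (10.5%) and in 18.5% of those with a higher one, against 16.5% of all. These are matches of letters in a window and were not tested.

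Of the 92 genes that scaled with temperature, 28 were on the heat lists and 59 remained once heat genes were set aside. The 59 comprised 48 that rose at both temperatures and 11 that fell at both. Among all 92 the median size of the effect was 4.00 at 37 °C and 1.36 at 27 °C on the log2 scale, and the median ratio of the effects was 2.47. In the 17-to-37 experiment, leaving out 1 library of 1 h or 4 h left 44 to 59 genes in the class. In the 17-to-27 experiment, 45 to 61 genes were in it without either 17 °C library at 15 min or 1 h, the 27 °C library numbered 2 at 15 min or the 27 °C library numbered 1 at 4 h. Heat genes show the frame for these values. HSP101, the disaggregase that dissolves protein clumps, had 5063, 9631 and 8935 CPM (counts scaled to library size) in the 37 °C libraries after 15 min, 1 h and 4 h, against 37.6, 35.8 and 18 CPM at 17 °C. In the other experiment it had 30.4 to 1748 CPM at 27 °C (median 327) and 9.19 to 25.2 CPM at 17 °C (median 16.6). Its difference was 3.98 ± 1.03 (SE, adjusted p = 0.022). HSFA2 had effects of 8.99 at 37 °C and 5.74 at 27 °C, and its difference of 3.25 did not pass the test (adjusted p = 0.073). It had 4.00 to 689 CPM at 27 °C, and change of an effect with time counts as spread in that test.

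GolS1 had 731, 1586 and 1394 CPM in the 37 °C libraries at the 3 times in order, against 15.0, 31.7 and 27.1 CPM at 17 °C. At 27 °C it had 47.7 to 351 CPM (median 61.7), and in that experiment's 17 °C libraries 25.9 to 83.1 CPM (median 37.8). The 37 °C libraries did not overlap with any other, whereas the ranges at 27 °C and 17 °C overlapped, each time's 27 °C libraries lying above their own 17 °C pair. GolS1 effects were 5.64 at 37 °C and 1.18 at 27 °C, a difference of 4.46 ± 0.45 (SE, adjusted p = 4.57e-05). EGY3, a chloroplast protein of a site-2-protease-like family, had 806, 1361 and 1139 CPM at 37 °C, against 10.6, 14.7 and 11.1 CPM at 17 °C. It had 19.4 to 145 CPM at 27 °C (median 93.1) and 5.87 to 26.2 CPM at 17 °C (median 10.9). Both warm groups rose, and the 4 h libraries at 27 °C, with 19.4 and 20.5 CPM, were the lowest of the warm ones. The difference for EGY3 was 4.07 ± 0.49 (adjusted p = 0.000198).

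The other genes of this class that rose and led under the rule on named genes were AT5G10695, annotated as a methionyl-tRNA synthetase, AT5G35320, annotated as DBH-like monooxygenase, AT5G03990, an FK506-binding-like protein, and PDX1.2, a non-catalytic partner of the vitamin B6 synthases. Their differences were 4.50 for AT5G10695, 3.96 for AT5G35320, 3.63 for AT5G03990 and 3.54 for PDX1.2, with adjusted p between 7.69e-05 and 0.0105. Each of the 6 genes overlaps a neighbouring gene in the deposited coordinates, and the strand setting of the counting is not given in the sources used here, so reads of neighbours may be among theirs. The list of 22 endoplasmic reticulum folding genes had 2 members in this class, which holds 0.419% of all genes, and 4 that were 37-specific, 1 opposite and 2 shared. A few other members of the class are named after their values were seen. DER1, a derlin of the export channel for misfolded proteins, had effects of 2.79 at 37 °C and 0.79 at 27 °C. BZIP28, a membrane-bound transcription factor of the unfolded protein response, had 1.81 at 37 °C and 0.61 at 27 °C, and TIN1, a gene induced by the glycosylation inhibitor tunicamycin, had 6.27 and 3.86 at the same temperatures. SCL33, an SR-like splicing factor, had 1.90 at 37 °C and 1.2 at 27 °C, and its difference of 0.70 ± 0.20 was called (adjusted p = 0.028). FBA6, an aldolase of glycolysis, had 3.66 at 37 °C and 1.86 at 27 °C.

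Of the named genes that fell at both temperatures, HAM1, a GRAS transcription factor that keeps shoot stem cells undifferentiated, had the largest difference. ARPN, too low in counts for the rule on named genes, had −3.29. HAM1 had 25.4, 10.4 and 8.53 CPM at 37 °C, against 81.4, 80.1 and 72.8 CPM at 17 °C. It had 39.7 to 52.3 CPM at 27 °C (median 43.3), against 63.1 to 87.7 CPM at 17 °C (median 70.1). No warm library of HAM1 overlapped with its 17 °C libraries, and every 37 °C library lay below every 27 °C library. Its effects were −2.56 at 37 °C and −0.68 at 27 °C, a difference of −1.88 ± 0.25 (adjusted p = 0.000335). ADS2, a fatty acid desaturase known for its role in the cold, had effects of −1.38 and −0.53 in that order and a difference of −0.85 ± 0.21 (adjusted p = 0.017). EXPA15, an expansin that loosens cell walls, had effects of −1.66 at 37 °C and −0.82 at 27 °C. AT2G32430, a galactosyltransferase, had −1.65 at 37 °C and −0.39 at 27 °C. For HTB1, a histone H2B gene, and AT5G60030 the differences were −0.59 and −0.64. HTB1 lost its call in 21 of 28 alternative settings, AT5G60030 in 17 and EXPA15 in 14.

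Over time the medians of the class ran as follows, with no test. The median 37 °C effect of the 48 genes that rose was 3.01 at 15 min, 3.36 at 1 h and 3.15 at 4 h. The median 27 °C effect of the same genes was 1.36, 1.45 and 0.72 at those times, so it was smallest at 4 h. For the 11 that fell, the medians at 37 °C were −1.63, −1.46 and −2.03 and those at 27 °C −0.52, −0.93 and −0.78. Over all nuclear genes the difference was called for 101 genes at 15 min (0.459%), 406 at 1 h (1.85%) and 1759 at 4 h (8%). With a term for each combination of experiment, time and replicate number, those counts were 789, 1723 and 4655. With a single term for replicate number as the block they were 192, 767 and 2902. Leaving out any 1 library of the 17-to-27 experiment at 15 min gave 43 to 65 genes there. At 1 h there were 179 and 219 genes without the 17 °C library numbered 1 and 2, and at 4 h there were 986 to 1135 without either 27 °C library or the 17 °C library numbered 1.

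**Figure D2:**
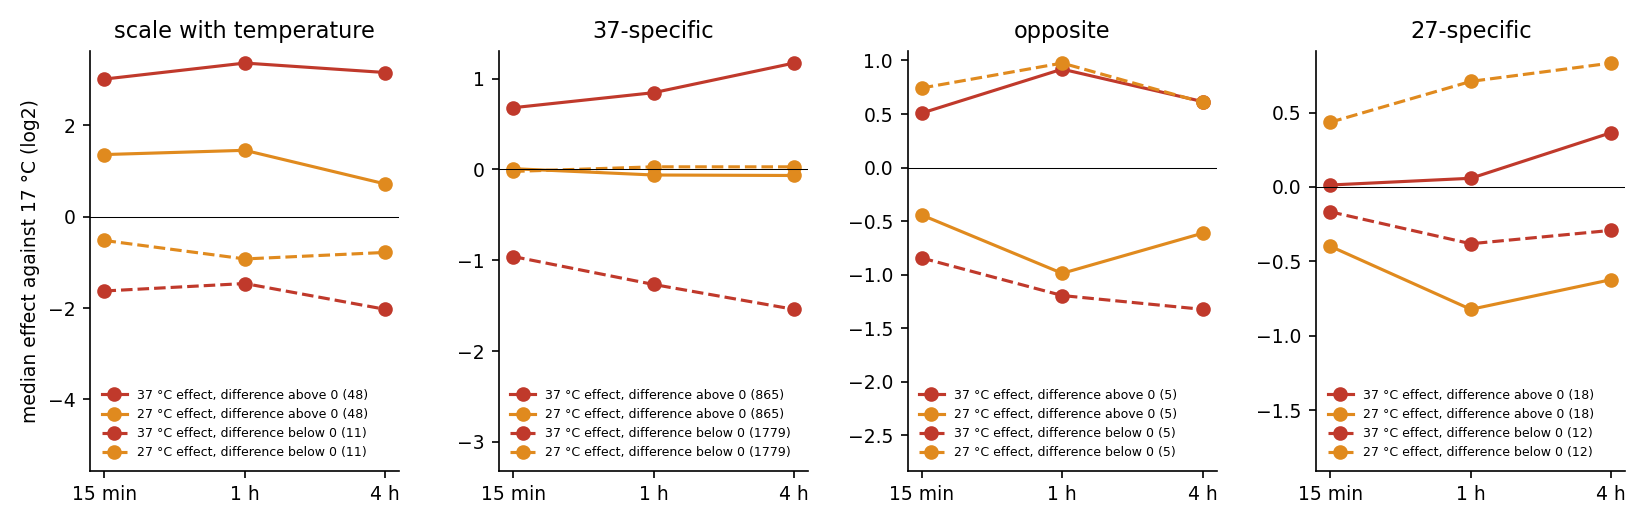
Median effect over 17 °C (log2) at 15 min, 1 h and 4 h for 4 classes beyond heat genes; red lines are the 37 °C effect and orange lines the 27 °C effect, solid where the difference lay above 0 and dashed where it lay below 0, with the number of genes in brackets. In the genes that scale with temperature the 37 °C median stayed near 3 while the 27 °C median was 0.72 at 4 h, and in the 37-specific genes the 37 °C median moved away from 0 with time.

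The largest class was 37-specific, with 2644 genes beyond heat genes, of which 865 rose and 1779 fell at 37 °C. Their median 37 °C effect grew with time. It was 0.68 at 15 min, 0.84 at 1 h and 1.17 at 4 h in those that rose, and −0.96, −1.27 and −1.54 in those that fell. The median 27 °C effect lay between −0.07 and 0.03 at every time. The class, heat genes included, held 1097 genes without the 4 h library at 37 °C, 1121 without its 17 °C partner, 1435 without the 1 h library at 37 °C and 1448 without its 17 °C partner. An uncalled 27 °C effect is not a proven absence of one. Its 95% interval lay wholly within 0.5 of 0 for 491 of the 865 genes (56.8%) and for 828 of the 1779 (46.5%).

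ZIP4, a zinc transporter of the plasma membrane, had 126, 128 and 98.5 CPM at 37 °C, against 4.1, 3.67 and 4.34 CPM at 17 °C. It had 5.02 to 5.85 CPM at 27 °C (median 5.26) and 2.54 to 5.27 CPM at 17 °C (median 4.28). The 37 °C libraries stood far above all others, while the 27 °C and 17 °C ranges overlapped. The difference for ZIP4 was 4.53 ± 0.23 (adjusted p = 1.12e-07). FBS1, a stress-induced F-box protein, had 137, 186 and 89.7 CPM at 37 °C, against 8.16, 2.88 and 3.79 CPM at 17 °C. It had 2.33 to 26.5 CPM at 27 °C (median 6.09) and 3.46 to 28.4 CPM at 17 °C (median 7.36), so the groups of the milder experiment overlapped. Its difference was 5.09 ± 0.52 (adjusted p = 6.08e-05).

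Of the 6 genes that rose in this class and led under the rule on named genes, 4 have a measured feature that bears on their reads. AT1G74300 overlaps HSP101, and RABA2b, a Rab GTPase of membrane traffic, lies 295 bases from AT1G07400, a small heat shock protein gene. Their differences were 5.49 for AT1G74300 and 4.97 for RABA2b. AT2G07698 and AT2G07717 lie in the copy of the mitochondrial genome inserted in chromosome 2 and share sequence with it. The mitochondrial genome took 0.152%, 0.265% and 0.448% of reads in the 37 °C libraries, against 0.029%, 0.030% and 0.041% at 17 °C. Its share was 0.571% in the 27 °C library numbered 1 at 1 h and 0.551% in its 17 °C partner. Across the class, 50 of 865 genes that rose (5.78%) and 4 of 1779 that fell (0.225%) overlapped or lay within 1000 bases of 1 of 115 heat genes that rose at 37 °C, against 136 of all 21705 genes beyond heat genes (0.627%). The part of neighbours' reads in these rises was not tested.

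The 6 genes that fell in this class and led under the rule on named genes included 3 annotated beta-glucosidases. BGLU33 had 4.32, 2.33 and 1.08 CPM at 37 °C, against 44.2, 50.4 and 40.5 CPM at 17 °C. It had 31.0 to 50.9 CPM at 27 °C (median 36.3) and 41.1 to 57.3 CPM at 17 °C (median 48.1). Every 37 °C library lay below every other library, and the ranges at 27 °C and 17 °C overlapped. The difference for BGLU33 was −3.87 ± 0.30 (adjusted p = 2.79e-06). BGLU34 and BGLU35 are myrosinases of roots, enzymes that release toxic products from glucosinolates, and their differences were −4.23 and −3.63. AT1G63130, a TPR-like protein, had 1.04, 0.161 and 0.127 CPM at 37 °C, against 16.5, 15.4 and 17.4 CPM at 17 °C, and a difference of −5.02 ± 0.53 (adjusted p = 6.31e-05). AT2G21210, a SAUR-like gene of the auxin-responsive family, and AT5G54370, a LEA-like gene, had differences of −4.18 and −4.38.

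**Figure D3:**
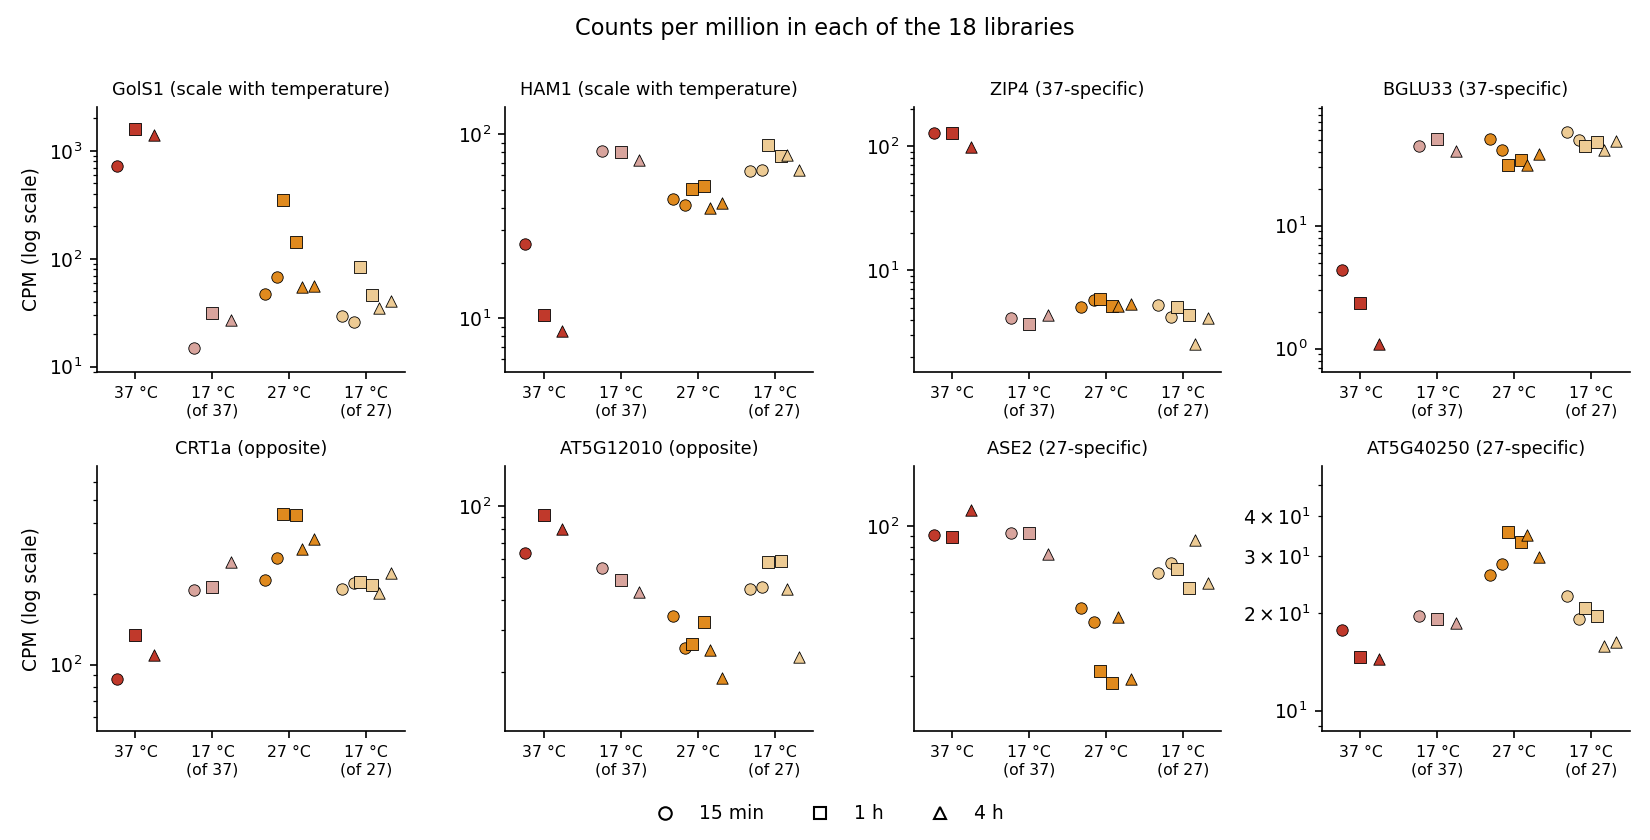
CPM (log scale) of 8 genes in the 3 libraries at 37 °C, their 3 at 17 °C, the 6 at 27 °C and their 6 at 17 °C; each point is 1 library, its shape gives the time, and within a group time runs left to right. GolS1 and HAM1 are displaced at both warm temperatures and further at 37 °C, ZIP4 and BGLU33 at 37 °C, CRT1a and AT5G12010 in opposite directions, and ASE2 and AT5G40250 at 27 °C.

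Where the 27 °C effect had the same sign but did not pass the test, 69 genes beyond heat genes rose and 52 fell. AT1G67360, a lipid droplet protein of the rubber elongation factor family, had effects of 4.69 at 37 °C and 1.18 at 27 °C. PMZ, an AN1-type zinc finger protein, had 3.97 at 37 °C and 0.56 at 27 °C. AT2G46250 lies 1224 bases from BAG6 and AT5G47610 lies 689 bases from AT5G47600, both neighbours being heat genes, and the differences were 3.83 and 3.64. TEM1, a repressor of flowering, had 3.89, 4.58 and 7.38 CPM at 37 °C, against 33.6, 50.4 and 71.8 CPM at 17 °C. It had 15.8 to 32.7 CPM at 27 °C (median 28.5) and 24.5 to 71.5 CPM at 17 °C (median 32.3), 2 ranges that overlapped. Its difference was −2.77 ± 0.37 (adjusted p = 0.000335). AT5G45280, a pectin acetylesterase, AT3G61820, an aspartyl protease, and PGSIP7, a sugar transferase, had differences of −2.66, −2.48 and −2.35.

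Opposite effects were called in 10 genes by edgeR and 49 by DESeq2, and 359 genes met the rule at an unadjusted p under 0.05. CRT1a, a calreticulin that folds glycoproteins and stores calcium in the endoplasmic reticulum, had 87.2, 134 and 110 CPM at 37 °C, against 208, 214 and 275 CPM at 17 °C. It had 229 to 436 CPM at 27 °C (median 326), against 202 to 246 CPM at 17 °C (median 220). All 37 °C libraries lay below all 17 °C ones, and at 27 °C 5 of the 6 libraries lay above every 17 °C library. The effects were −1.08 ± 0.19 at 37 °C and 0.59 ± 0.13 at 27 °C, a difference of −1.67 ± 0.23 (adjusted p = 0.00037). AT4G01330, a protein kinase, had effects of −1.23 at 37 °C and 0.93 at 27 °C, and AT1G72645, which has no annotated function, had −1.09 and 0.66 in that order.

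AT5G12010, annotated as a nuclease, went the other way. It had 63.5, 91.8 and 80.0 CPM at 37 °C, against 54.8, 48.5 and 43.2 CPM at 17 °C. At 27 °C it had 18.8 to 34.5 CPM (median 25.8), against 23.0 to 58.5 CPM at 17 °C (median 45.3). The 37 °C libraries lay above their 17 °C libraries, whereas the 27 °C range overlapped with its 17 °C range. Its effects were 0.67 at 37 °C and −0.73 at 27 °C, and the difference was 1.41 ± 0.28 (adjusted p = 0.0045). AT5G22480, a ZPR1 zinc finger protein, had 0.48 at 37 °C and −0.44 at 27 °C. AT1G15030 had 0.45 at 37 °C and −0.36 at 27 °C. The remaining 4 genes of the class were too low in counts for the rule on named genes. Between 0 and 30 genes were opposite when 1 library was left out: 0 without either 17 °C library of the 27 °C experiment at 1 h or without its 27 °C library numbered 2 at 15 min, and 30 without its 27 °C library numbered 1 at 15 min. Without the 1 h libraries of the 17-to-37 experiment there were 4 (37 °C) and 5 (17 °C), and 1 to 4 without any other 1 library of the 17-to-27 experiment except the 17 °C library numbered 1 at 15 min.

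In 172 genes beyond heat genes the signs were opposite while 1 effect was not called. The difference lay above 0 in 100 of them, whose median effects ran between 3.90 and 4.68 at 37 °C and between −1.13 and −0.42 at 27 °C over the times. ELIP1, which shields chlorophyll under stress, had 510, 872 and 700 CPM at 37 °C, against 145, 184 and 43.1 CPM at 17 °C. It had 8.82 to 224 CPM at 27 °C (median 102) and 38.0 to 154 CPM at 17 °C (median 136), and at 27 °C its lowest libraries were those of 4 h. The difference for ELIP1 was 3.21 ± 0.66 (adjusted p = 0.0073). NCED3, which makes the precursor of abscisic acid, had effects of 2.81 at 37 °C and −0.59 at 27 °C, the second of these not called. EXPA7, a root hair expansin, had −2.49 at 37 °C and an uncalled 0.59 at 27 °C. ZIP3, another zinc transporter, had −1.76 and an uncalled 0.62 in that order, so ZIP3 and ZIP4 lay on opposite sides at 37 °C.

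The 27-specific class held 30 genes, of which 18 fell at 27 °C and 12 rose. ASE2, the amidotransferase that opens purine synthesis in chloroplasts, had 90.5, 89.2 and 118 CPM at 37 °C, against 93.2, 92.3 and 73.9 CPM at 17 °C. It had 18.6 to 41.8 CPM at 27 °C (median 28.5), against 51.5 to 86.3 CPM at 17 °C (median 61.8). Every 27 °C library lay below every 17 °C library of its experiment, while the 37 °C and 17 °C ranges overlapped. The effects were 0.19 ± 0.26 at 37 °C and −1.17 ± 0.19 at 27 °C, a difference of 1.36 ± 0.32 (adjusted p = 0.012). ABCG27, a membrane transporter, had −0.08 at 37 °C and −1.48 at 27 °C. RBP47C', an RNA-binding protein, had 0.42 at 37 °C and −0.51 at 27 °C.

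Of these 18 genes, 2 more are named after their values were seen. NSN1, a nucleolar GTPase, had effects of 0.08 at 37 °C and −0.64 at 27 °C. NAF1, an assembly factor of small nucleolar ribonucleoproteins, had 0.16 at 37 °C and −0.48 at 27 °C. The list of 18 nucleolar ribosome-making genes had no member in the 27-specific class. On it 2 fell at 27 °C by edgeR, against 0.705% of all genes tested. At 27 °C 12 of the 18 fell at an unadjusted p under 0.05 and 7 by DESeq2, settings whose share over all genes is not given here. By edgeR none changed at 37 °C, where 1 passed at an unadjusted p under 0.05 and 1 by DESeq2. The list's median effect was −0.05 at 37 °C and −0.38 at 27 °C, and its 1 called difference was that of PUM24, at 0.71 ± 0.22 (adjusted p = 0.041).

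AT5G40250, a RING-type ubiquitin ligase by annotation, had the largest difference of the named genes among the 12 that rose at 27 °C. Larger ones belonged to genes outside the rule on named genes. These were −1.84 in BBX17, −1.43 in AT1G62510, −1.32 in AT5G39790 and −1.08 in AT5G23370. AT5G40250 had 17.7, 14.6 and 14.4 CPM at 37 °C, against 19.6, 19.2 and 18.6 CPM at 17 °C. It had 26.3 to 35.6 CPM at 27 °C (median 31.6), against 15.9 to 22.7 CPM at 17 °C (median 19.4). The 27 °C libraries lay above all others, and the 37 °C libraries lay slightly below their 17 °C libraries without passing the test. The effects were −0.30 ± 0.15 at 37 °C and 0.72 ± 0.11 at 27 °C, a difference of −1.02 ± 0.19 (adjusted p = 0.0028). UGT76B1, which attaches glucose to salicylic acid, had −0.34 at 37 °C and 0.57 at 27 °C, and PDIL1-5, a disulfide isomerase, had −0.32 and 0.48 in that order. The 95% interval of the 37 °C effect lay wholly within 0.5 of 0 for 8 of the 18 genes and for none of the 12. The size of the class moved with the settings: it held 57 genes when replicate number was a single block term and 56 when it was a term within each time. It held 8 to 80 genes when 1 library was left out, with 80 where the 27 °C library numbered 1 at 15 min was missing and 8 where either 17 °C library of that experiment at 1 h was missing. It held 9 to 16 without any other 1 library of 27 °C, the 17 °C library numbered 2 at 4 h of that experiment, or any 1 h or 4 h library of the 17-to-37 experiment. All 12 named members lost their called difference in at least 1 alternative.

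A separate experiment that moved seedlings between 22 °C and 27 °C, with 1 library per temperature and time, played no part in the classing. Its log2 ratio of 27 °C over 22 °C was averaged over the 3 times. Among the 27-specific genes it was below 0 for 18 of the 18 that fell (median −0.32) and above 0 for 12 of the 12 that rose (median 0.44). It was above 0 for 48 of the 48 genes that rose with temperature (median 1.05) and below 0 for 11 of the 11 that fell (median −0.77). Among the opposite genes it was below 0 for 4 of the 5 that fell at 27 °C and above 0 for 5 of the 5 that rose. Where signs were opposite with 1 effect uncalled, it was below 0 for 48 of the 100 with a 27 °C effect below 0. It was above 0 for 40 of the 72 with a 27 °C effect above 0. The ratio was above 0 for 527 of the 865 37-specific genes that rose at 37 °C (median 0.06) and below 0 for 1144 of the 1779 that fell (median −0.12). Over all nuclear genes the median was −0.02, with 10376 above 0 and 11607 below. ASE2 had 41.3, 32.7 and 40.9 CPM at 27 °C, against 45, 36.7 and 78.6 CPM at 22 °C, lower at each time and by most at 4 h. AT5G40250 had 26.9, 35.9 and 28.0 CPM at 27 °C, against 24.3, 26.4 and 16.7 CPM at 22 °C, higher at each time. There were no replicates in that experiment and nothing was tested.

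**Figure D4:**
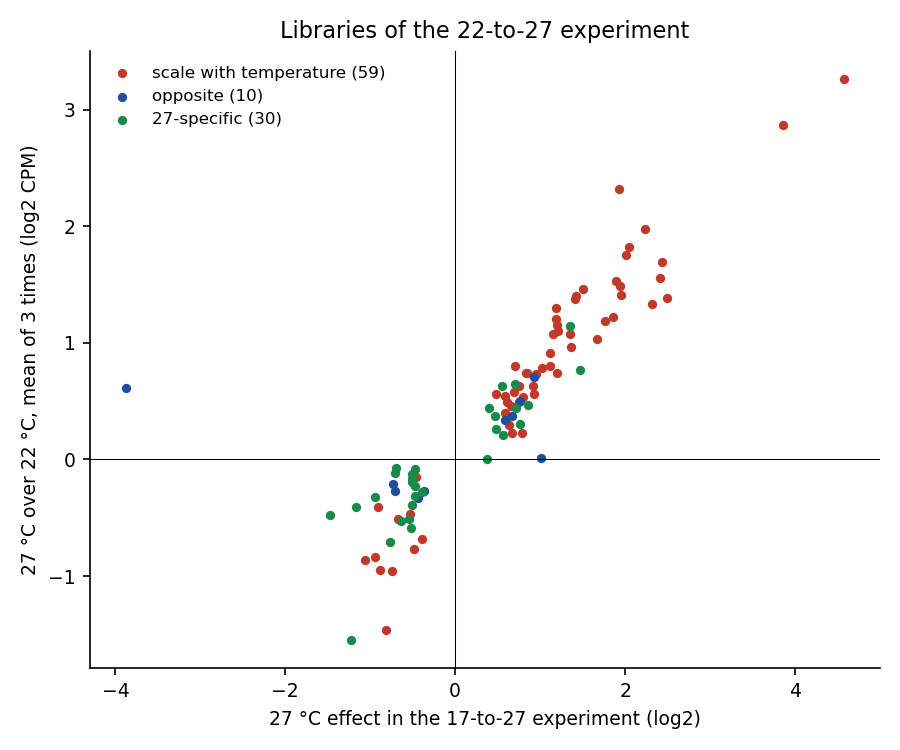
Mean log2 ratio of 27 °C over 22 °C libraries (vertical axis, 3 times, 1 library each) against the 27 °C effect of the 17-to-27 experiment (horizontal axis, log2) for genes of 3 classes beyond heat genes, with the number of genes in brackets. All 59 genes that scale with temperature and all 30 27-specific genes have the same sign on both axes, whereas 1 of the 10 opposite genes does not.

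The 110 genes beyond heat genes with both effects called in the same direction and no called difference, which does not show that the effects were equal, comprised 68 that rose and 42 that fell. AT5G12110, a subunit of translation elongation factor 1, had 387, 602 and 418 CPM at 37 °C, against 14.2, 22.0 and 14.6 CPM at 17 °C. It had 73.3 to 583 CPM at 27 °C (median 207), against 9.91 to 17.3 CPM at 17 °C (median 15.7). Neither warm group overlapped with its 17 °C group, and the effects of 4.79 at 37 °C and 3.87 at 27 °C differed by 0.92 ± 0.45 (adjusted p = 0.18). AtCDC48B, an unfolding ATPase of protein breakdown, had 3.86 at 37 °C and 2.16 at 27 °C. ERD3, a methyltransferase, fell at both, with −1.46 at 37 °C and −0.76 at 27 °C.

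Growth genes were taken as lists. Of 26 expansin and XTH genes, whose products loosen and remodel cell walls, 13 fell at 37 °C, against 16.3% of all genes tested. At 27 °C 2 fell, against 0.705% of all genes, and 7 had a called difference below 0, against 9.32%. The list's median difference was −0.70, against 0.00 over all nuclear genes. EXPA4 had 19.5, 20 and 8.85 CPM at 37 °C, against 61.0, 64.6 and 50.7 CPM at 17 °C. It had 46.1 to 74.1 CPM at 27 °C (median 52.9) and 36.8 to 65.7 CPM at 17 °C (median 59.4), so only the 37 °C libraries stood apart. XTH30 had effects of −1.75 at 37 °C and an uncalled 0.50 at 27 °C. Of 27 thermomorphogenesis genes and PIF targets, 6 had a called difference below 0, against 9.32% of all genes, with a list median of −0.93. PAR1, a brake on shade growth, had a difference of −2.57 ± 0.48 (adjusted p = 0.0033). SAUR20, which promotes cell expansion, had 0, 0.0803 and 0.127 CPM at 37 °C, against 1.00, 3.40 and 3.04 CPM at 17 °C. SAUR19 was at 0 CPM in all 3 37 °C libraries and no fold is given for it. PIF4 itself had 29.0, 30.0 and 23.6 CPM at 37 °C, against 23.5, 45 and 96.3 CPM at 17 °C. It had 21.9 to 123 CPM at 27 °C (median 99.7) and 19.3 to 104 CPM at 17 °C (median 72.2), and its difference of −1.25 was not called (adjusted p = 0.071).

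Among 31 auxin genes 4 had a called difference below 0 and 3 above, shares close to the 9.32% and 6.03% of all genes tested. PIN7, an auxin exporter, had −1.75 at 37 °C and −0.17 at 27 °C, SHY2, an Aux/IAA repressor, had −1.42 and −0.17, and BRU6, a GH3 enzyme that conjugates auxin, had 2.12 and 0.04, each pair in that order. Of 17 brassinosteroid genes 3 had a called difference below 0 and 1 above, against 9.32% and 6.03% of all genes tested. The synthesis enzymes DET2 and DWF4 and the inactivating enzyme BAS1 had differences of −1.10, −1.04 and −2.07, whereas the transcription factor BZR1 had 0.63. Of 22 gibberellin genes 2 had one below 0, a share close to that of all genes, namely the receptors GID1C at −1.14 and GID1A at −0.77. Of 18 aquaporins, 3 had a called difference below 0, against 9.32% of all genes. TIP2;2, a water channel of the vacuole, had effects of −1.05 at 37 °C and 0.38 at 27 °C, the second of these not called.

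Markers of tissues moved beside these falls. Sums of markers were scaled to library size alone, whereas the CPM of single genes also used TMM factors. Those factors were 0.887, 0.788 and 0.787 at 37 °C, against 1.063, 1.035 and 1.053 at 17 °C. With them the 37 °C sums would stand higher relative to the 17 °C ones. The summed level of 20 root markers was 245, 190 and 156 CPM at 37 °C, against 410, 352 and 315 CPM at 17 °C. That of 17 epidermis, guard cell and vascular markers was 812, 566 and 484 CPM at 37 °C, against 1202, 1230 and 1104 CPM at 17 °C. At 27 °C root markers summed to 196 to 336 CPM, against 227 to 380 CPM at 17 °C. Light harvesting and Rubisco genes summed to 36590, 38710 and 35320 CPM at 37 °C, against 33950, 38640 and 45400 CPM at 17 °C, and none of its 24 members had a called difference by edgeR or DESeq2, nor an unadjusted p under 0.05. EXPA18 and PRP3 of root hairs had differences of −3.17 and −2.20, SUC2, the sucrose carrier of companion cells, −1.57, and PDF1 of the epidermis −1.11. In whole seedlings fewer cells of a type and less RNA per cell cannot be told apart, and the part of tissue markers in the falls of growth genes was not tested.

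Glucosinolate synthesis, the pathway of the defence compounds of the cabbage family, had 10 of 27 genes with a called difference below 0, against 9.32% of all genes, all of them 37-specific, and a median difference of −0.82. At 37 °C 13 of the genes fell, against 16.3% of all genes. By edgeR none changed at 27 °C, where 2 fell at an unadjusted p under 0.05 and none by DESeq2. MYB34, which switches on the indole branch, had 17.5, 12.1 and 8.08 CPM at 37 °C, against 76.8, 66.9 and 49.3 CPM at 17 °C. It had 61.9 to 72.0 CPM at 27 °C (median 67.7) and 55.9 to 107 CPM at 17 °C (median 86.4). The 37 °C libraries lay below all others, and the other groups overlapped. The difference for MYB34 was −2.11 ± 0.22 (adjusted p = 3.79e-05). MYB76, a regulator of the aliphatic branch, AOP2, which modifies side chains, and CYP79F1, which converts chain-elongated methionine, had differences of −2.91, −2.85 and −1.84.

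Genes of protein folding and breakdown outside the 4 heat lists went in both directions. Of 22 genes of endoplasmic reticulum folding 4 had a called difference above 0 and 4 below, against 6.03% and 9.32% of all genes tested. ATERDJ3A, a DnaJ partner of BiP, had 378, 484 and 398 CPM at 37 °C, against 6.36, 4.24 and 3.79 CPM at 17 °C. It had 11.3 to 148 CPM at 27 °C (median 37.7), against 3.74 to 12.9 CPM at 17 °C (median 5.71), ranges that overlapped, while the 37 °C libraries lay above all others. Its difference was 3.93 ± 0.64 (adjusted p = 0.0019). BIP1, the lumenal HSP70, had 2.01 at 37 °C and 0.66 at 27 °C. IRE1-1, a sensor kinase of the unfolded protein response, had −1.22 at 37 °C and 0.15 at 27 °C, below 0 in its difference like CRT1a. Of 45 proteasome genes 23 rose at 37 °C, against 12.7% of all genes, and the list's median 37 °C effect was 0.38. A called difference above 0 was found in 4 of the 45, a share close to the 6.03% of all genes. By edgeR none of the 45 changed at 27 °C, where 4 rose at an unadjusted p under 0.05 and 3 by DESeq2. RPT5B had 81.4, 66.6 and 43.9 CPM at 37 °C, against 25.0, 25.1 and 30.0 CPM at 17 °C. It had 23.5 to 27.5 CPM at 27 °C and 20.5 to 27.8 CPM at 17 °C. Of 20 translation factors 4 had a called difference above 0, against 6.03% of all genes. Those of the initiation factor subunits EIF3E, EIF3C and TIF3H1 were 0.69, 0.62 and 0.57, and that of the poly(A)-binding protein PAB8 was 0.63.

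**Figure D5:**
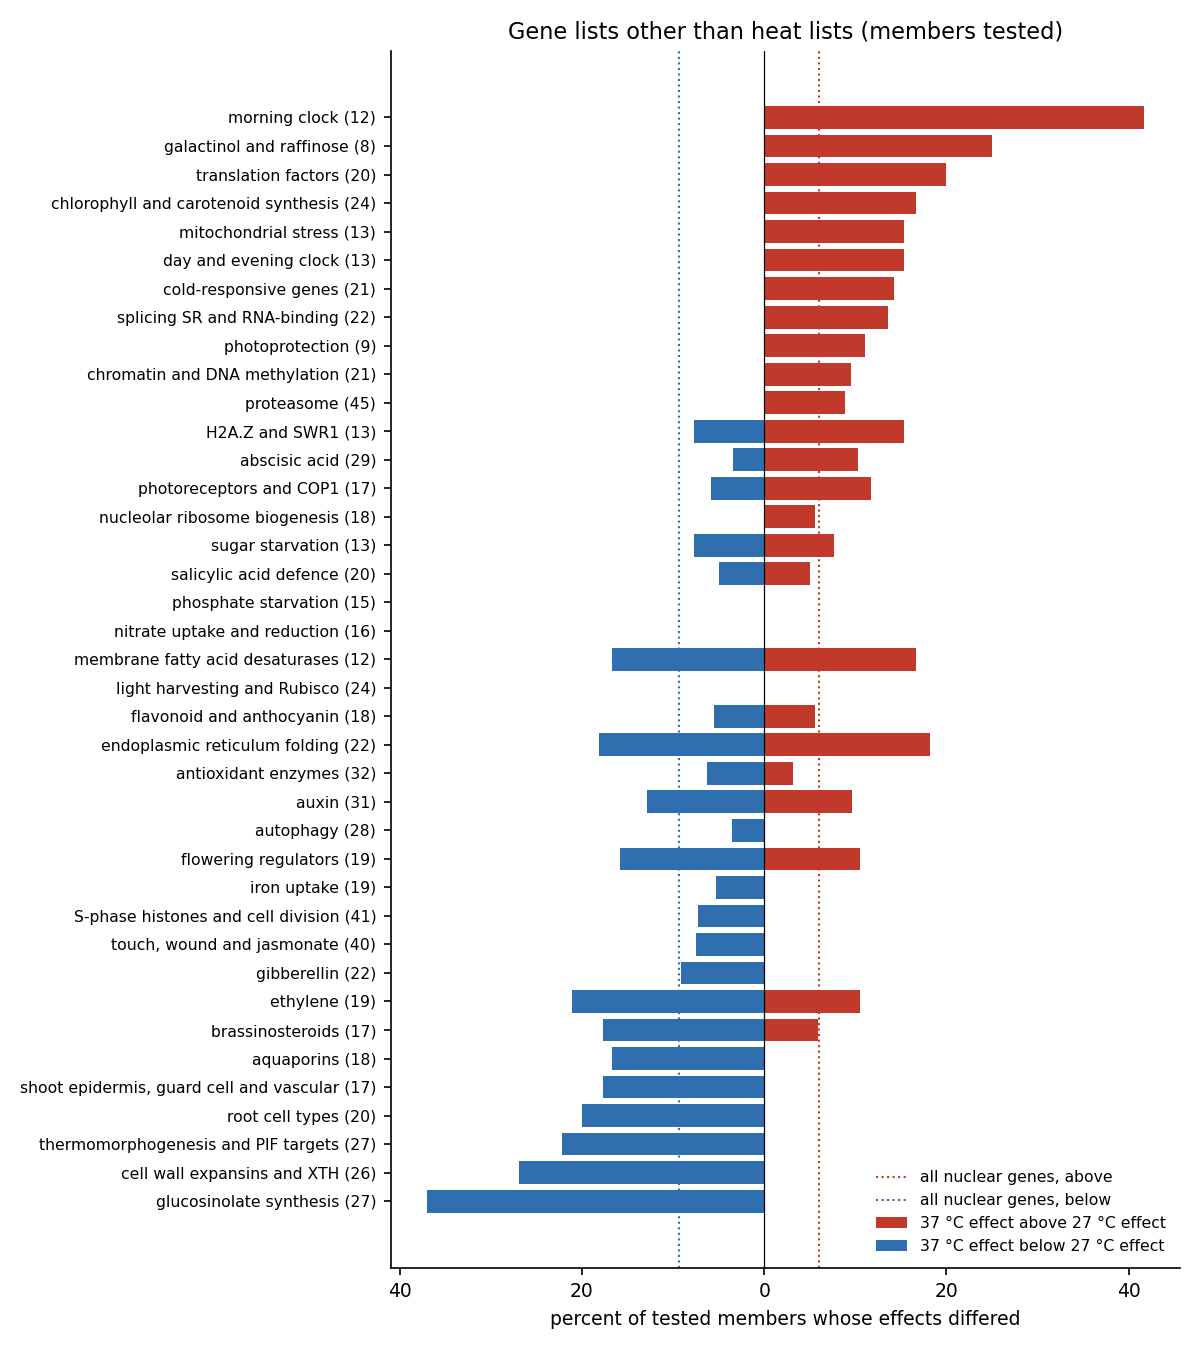
Percent of tested members with a called difference in gene lists other than the 4 heat lists and the seed storage list, to the right in red where the 37 °C effect lay above the 27 °C effect and to the left in blue where it lay below, with the number of members in brackets; dotted lines give the same shares over all nuclear genes, 6.03% and 9.32%. Among the lists drawn, morning clock genes reach furthest right with 5 of 12 and glucosinolate synthesis furthest left with 10 of 27.

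Among 12 morning clock genes 5 had a called difference above 0, against 6.03% of all genes, with a list median of 0.78. At 37 °C 8 of them rose, against 12.7% of all genes, and at 27 °C 1 rose, against 1.07%. AT5G52660, known as RVE6, a MYB-like activator of evening genes, had 37.0, 52.4 and 55.6 CPM at 37 °C, against 24.5, 20.7 and 14.0 CPM at 17 °C. It had 14.5 to 17.9 CPM at 27 °C (median 14.9) and 14.0 to 26.2 CPM at 17 °C (median 21.6). The 37 °C libraries were above all others, and the ranges at 27 °C and 17 °C overlapped. The difference for AT5G52660 was 1.71 ± 0.29 (adjusted p = 0.0016). CCA1, a core morning repressor, had 668, 522 and 440 CPM at 37 °C, against 479, 443 and 138 CPM at 17 °C, lower at each later time in both groups and lowest at 17 °C after 4 h. At 27 °C CCA1 had 113 to 418 CPM (median 323), against 129 to 452 CPM at 17 °C (median 329), and its difference was 0.91 ± 0.25 (adjusted p = 0.026). RVE1, AT3G12320 (LNK3) and RVE8 had differences of 1.31, 1.26 and 1.00. Of 13 day and evening clock genes 2 had a called difference above 0, against 6.03% of all genes. These were ZTL and LKP2, F-box photoreceptors, at 0.73 and 0.94.

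Stress hormones and their enzymes contributed a few large differences. ACS7 and ACS6, which make the ethylene precursor, had effects of 3.70 and 2.22 at 37 °C, against −0.71 and −0.84 at 27 °C, the 27 °C ones not called. ACO1, which turns the precursor into ethylene, and EBF2, an F-box brake on the pathway, had differences of −2.35 and −1.65. Of the 19 ethylene genes 4 had a called difference below 0 and 2 above, against 9.32% and 6.03% of all genes tested. Of 29 abscisic acid genes 3 had a called difference above 0 and 1 below, against 6.03% and 9.32% of all genes tested. HAI2, a phosphatase of that pathway, had 48.7, 82.7 and 34.2 CPM at 37 °C, against 0.209, 0.262 and 0.372 CPM at 17 °C. It had at most 3.49 CPM at 27 °C, with 1 of the 17 °C libraries of that experiment at 8.86 CPM. PYL6, a receptor of the hormone, had a difference of −3.46 ± 0.58 (adjusted p = 0.0017). Among 21 genes known from the cold 3 had a called difference above 0, against 6.03% of all genes tested. Of these COR47, a dehydrin, had 1.43 at 37 °C and −0.02 at 27 °C, and the zinc finger factor RHL41 had 3.04 and −0.20 in that order.

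CSD1, the cytosolic copper/zinc superoxide dismutase, had 13.4, 3.53 and 3.37 CPM at 37 °C, against 26.7, 35.0 and 21.8 CPM at 17 °C. It had 20.9 to 29.7 CPM at 27 °C (median 24.4) and 19.3 to 32.8 CPM at 17 °C (median 27.2). Only the 37 °C libraries lay below the rest, and the difference was −2.14 ± 0.40 (adjusted p = 0.0032). CSD2, its chloroplast counterpart, had a difference of −1.60. Of 32 antioxidant enzymes these 2 had a called difference below 0 and 1 had one above, against 9.32% and 6.03% of all genes tested. Of 12 desaturases 2 had a called difference above 0 and 2 below, against 6.03% and 9.32% of all genes tested. ADS1 had −1.44 and FAD3, which makes triple-unsaturated lipids, had 0.80. FLC, the repressor of flowering, had 11.7, 14.0 and 15.3 CPM at 37 °C, against 7.20, 6.39 and 7.26 CPM at 17 °C. It had 2.89 to 5.86 CPM at 27 °C (median 3.55) and 3.82 to 6.06 CPM at 17 °C (median 5.5), and its difference was 1.39 ± 0.33 (adjusted p = 0.013). Of 19 flowering regulators 2 had a called difference above 0 and 3 below, against 6.03% and 9.32% of all genes tested. RAV2, a relative of TEM1, and SMZ, also floral repressors, had differences of −1.60 and −1.29. Of 13 genes of the histone variant H2A.Z and the SWR1 complex that places it, 1 had a called difference below 0 and 2 above. Over all genes tested those shares were 9.32% and 6.03%. HTA4 had −3.04, a value resting on 1, 0 and 2 counts at 37 °C, against 25, 21 and 19 at 17 °C. ARP6 and RIN1 had small differences of 0.51 and 0.57.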

How the data were processed

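Messenger RNA of whole seedlings was sequenced as paired 100-base reads. The deposited files give read counts per gene, made by the authors with FastQC, Trimmomatic, TopHat and Picard on TAIR10, per the submitters' processing notes, which name no version. The column of raw counts was used. The labels name 2 library kits, stranded and unstranded, and 2 sequencing centres without tying them to libraries, and the strand setting of counting is not given in the sources used here. Of 33557 genes per file, 32810 (97.77%) matched the TAIR10.1 RefSeq annotation.

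Counts of 18 libraries were fitted with edgeR 4.0.16 (quasi-likelihood, robust, TMM scaling, filterByExpr) in R 4.3.3. The fit held a term for each experiment and time and a term for each warm temperature (10 residual degrees of freedom). Its residual spread holds change of a warm effect between times as well as the spread between duplicates. Effects at single times came from a fit of group means (6 residual degrees of freedom), whose spread rests on the duplicated groups of the 17-to-27 experiment, since the 17-to-37 experiment has 1 library per group and its spread is assumed alike. P-values were adjusted over all 22211 genes tested, and counts are of nuclear ones. SE is the size of the effect over the square root of F. CPM are counts scaled to library size by TMM, except in the summed tissue markers, which are scaled to library size alone. In simulated counts, the test of the difference called 32% of 100 genes changed by 1 on the log2 scale and 94% of 100 changed by 2, with 21996 genes in that step. It also called 8 unchanged genes. Libraries were drawn independently there, so deviations shared by libraries of the same number were not simulated, and these shares may not hold for the data.

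Libraries with the same replicate number deviated together at 15 min, 1 h and 4 h (correlations 0.408, 0.548 and 0.445 between the 27 °C and 17 °C libraries). The main fits hold no replicate term, so their p-values and classes do not use a pairing by number. Fits with a replicate block are among the alternatives. Alternatives were DESeq2 1.42.0, RLE scaling, no filter, nuclear genes alone, a replicate block, other bands, and leaving out libraries or times.

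Named genes were, per class and direction, the 6 with the largest difference (4 in the uncertain classes, 3 of the shared ones), whose log2 CPM averaged 3 or more, the same sign at all 3 times and no heat name, up to 4 called members per list, and HSP70, HSFA2, HSP101, PIF4 and CCA1. The genes compared and the lists were chosen with earlier results of these data known. Of 957 list names 943 matched a gene. Promoters were cut from the TAIR10.1 genome by its RefSeq annotation for 21955 of the nuclear genes.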

Additional observations from a re-analysis of the deposited data

Results flagged for a closer look

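In 10 nuclear genes (0.0455%) the difference between the 37 °C and 27 °C effects itself changed with time, by a test of the 4 h difference minus the 15 min difference (edgeR's quasi-likelihood test, adjusted p between 0.032 and 0.049). NFXL1, a zinc finger factor, had a 37 °C effect of 0.44 and a 27 °C effect of 0.18 at 15 min, and 4.99 and 0.17 in that order at 4 h, a change of 4.55 ± 0.49 (SE). The change was 3.66 in AT1G16020, 3.51 in EMB2770, a splicing factor-like gene, 4.67 in FRB1, 3.85 in FLS1, which makes flavonols, and 10.1 in AT4G36010, a thaumatin-like gene. It was −3.68 in AT1G35612, −6.32 in AT1G62860, −4.06 in TAS3, a source of small RNAs that silence auxin response factors, and −4.16 in AT3G27200. In FRB1, FLS1 and AT4G36010 the difference was below 0 at 15 min and above 0 at 4 h, with −2.34 and 2.33 in FRB1, −1.42 and 2.43 in FLS1, and −3.63 and 6.46 in AT4G36010. Each 37 °C value rests on 1 library per time, and the number of genes varied between 0 and 313 over the alternatives.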

How the results depend on the processing

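Counts are of nuclear genes with a called result. None of 168 named genes changed sign in 4703 combinations of gene and setting; 857 lost the call and 21 gained it. With DESeq2 the 27 °C effect was called for 1142 genes, 180 scaled with temperature, 49 were opposite and 143 were 27-specific, and the difference was called for 293 genes at 15 min and 777 at 1 h, with 185 changing between 15 min and 4 h. That change was called for 25 genes with no filter and 16 with nuclear genes alone. A band of 0.25 left 17 27-specific genes. With replicate number as a block, 57 genes were 27-specific, and the difference was called for 192, 767 and 2902 genes at the 3 times, with 50 changing. With a replicate block within each time these were 56, then 789, 1723 and 4655, and 313. No other count moved by over 1.5 times under the block. Without both 1 h libraries numbered 1, 122 genes had a 27 °C effect, 49 scaled, 10 were 27-specific and 0 opposite.

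Without the 15 min libraries the difference was called for 2137 genes, the 37 °C effect for 4007 and the 27 °C effect for 255, with 39 scaling and 1448 37-specific. Without the 1 h libraries these were 1208, 3969, 19, 6 and 1007, with 0 opposite and 0 27-specific. Without the 4 h libraries they were 941, 2889, 122, 20 and 727, with 1 opposite and 0 27-specific. Leaving out 1 library at a time gave 1418 to 4092 genes for the difference, 3111 to 7254 for the 37 °C effect, 126 to 650 for the 27 °C effect, 44 to 92 that scaled, 1097 to 3306 37-specific, 0 to 30 opposite and 8 to 80 27-specific. At single times the ranges were 43 to 65 genes at 15 min, 179 to 454 at 1 h and 986 to 1275 at 4 h, and 0 to 7 for the change. Fewer libraries enter these fits, and the cause of the other shifts was not tested. The 17-to-37 experiment had at least 15.3 M counts per library but 1 library per group, so its own spread at single times was not measured.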
